A study of Homo sapiens with 4 samples.

Results

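DNA replication and G1/S genes are the genes whose products license, fire and copy replication origins and move a cell out of G1 into S phase. A list of 43 such genes was followed on microarrays of the human medulloblastoma line DAOY, an established cell line, out of 18417 genes that the arrays name unambiguously. The list was drawn up from gene function, but with earlier results of these data known. Each gene was read from the probe set with the highest mean intensity among those annotated with that 1 symbol. All 43 genes had such a probe set, and all 43 lay above the filter on low intensities (a mean log2 intensity of 6.78, the 25th percentile of genes). The samples were DAOY cells carrying a lentivirus for anti-ZFX shRNA H2, anti-ZFX shRNA H3 or anti-ZFX shRNA H4 (genotype ZFX KD, 1 array for each hairpin), and DAOY cells carrying the non-targeting shRNA SCR (genotype Ctrl, 1 array). All 4 cultures were thus transduced, and all 4 were kept in puromycin at 2 ug/mL for about 48 hours before RNA was taken, so no untouched culture was compared. The labels do not say whether the cells were clones or pools, nor whether a hairpin was transduced more than once.

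ZFX, the X-linked zinc finger transcription factor that the hairpins target, was below the scrambled array with each hairpin. Its intensity was 745, 749.6 and 996 with H2, H3 and H4, against 1430 with the scrambled hairpin, a mean log2 difference of -0.80 ± 0.24 (SD, n = 3 hairpins). The least reduction was that of H4. Array medians were 226 to 232, and across probe sets (not independent replicates) the pairwise correlations of log2 intensities were 0.992 to 0.996. Of 9 markers of neural progenitors and medulloblastoma, 8 were above the intensity filter, with ATOH1 only just over it and NES just under it. None of the 7 measured markers of leukocytes, endothelium, epithelium and liver was above it.

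Replication starts at origins marked by the origin recognition complex, on which CDC6 and CDT1 load the MCM helicase during G1. Cyclin E with its kinase partner and the E2F transcription factors then drive the switch to S phase, when CDC45 and the GINS complex join the helicase and polymerases start DNA synthesis. Many of these genes are themselves E2F targets and are transcribed mainly at the G1/S boundary, so their RNA is commonly read as a mark of cycling cells in tumours such as medulloblastoma. In RNA from a whole culture, fewer cells in S phase and less RNA per cell cannot be told apart.

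Across the list the knockdown arrays lay slightly below the scrambled array. The median over the 43 genes of the mean log2 difference was -0.098, beside -0.035 over the 13813 genes tested. In all, 20 of the 43 genes were lower on all 3 knockdown arrays than on the scrambled array, so that the groups did not overlap, where 30.6% of all genes tested were. Another 3 genes, GINS3, PRIM1 and RRM2, were higher on all 3 knockdown arrays (16.9% of all genes were), and 20 genes lay on both sides. These shares moved with the scaling of the arrays, but the members' counts moved less under the scalings planned beforehand. With each array centred on the median of all probe sets, 16 members were lower and 4 higher on all 3 knockdown arrays. Of all 13813 genes, 3224 and 3264 were. Quantile normalization gave 19 and 4 members (3459 and 3042 of all genes), and cyclic loess 20 and 4 (3658 and 2834 of all genes). Centring each array on the median of the genes tested, a scaling added after the data were seen, moved the counts most. With it, 11 members were lower and 8 higher on all 3 knockdown arrays, beside 14.4% and 34.3% of all genes. The members' median was then -0.0092 and that of all genes 0.054. Such a shift cannot alter the gap between these medians, which was -0.063, but the gap rested mostly on 1 array, being -0.0097 without H2, -0.087 without H3 and -0.10 without H4. The differences were small: only GINS1 was at least 1.2-fold lower with every hairpin (2.94% of all genes were), and no member was at least 1.2-fold higher with every hairpin (0.709% of all genes).

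None of the 43 genes passed the test across all genes, limma's moderated test of knockdown minus scrambled with Benjamini-Hochberg adjustment. In limma the smallest adjusted p of a member was 0.9998, and 0 of 13813 genes passed an adjusted p of 0.05 (0% called). Below 0.05 before adjustment there was 1 member, GINS1, and 446 of all genes tested (3.23%). With 3 arrays against 1, an exact permutation test cannot give a two-sided p below 0.25. The values that follow are therefore a description of these 4 arrays, and the words higher and lower refer to the arrays.

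**Figure D1:**
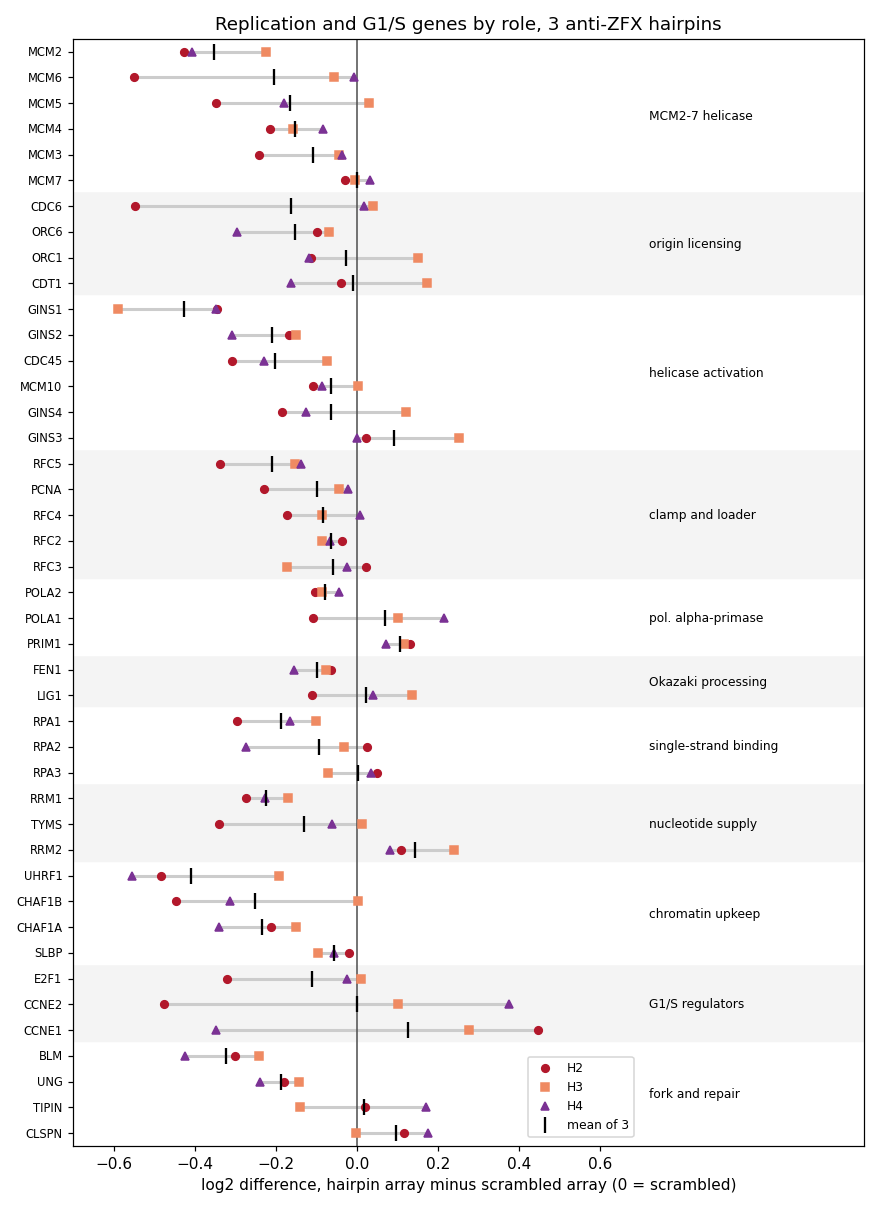
Log2 difference of each hairpin array from the scrambled array (x axis, 0 is the scrambled array) for the 43 genes, grouped by role. Circles, squares and triangles are the H2, H3 and H4 arrays, grey bars span the 3 values and black ticks are their means; 20 genes have all 3 symbols left of 0 and 3 genes have all 3 right of 0, while CCNE1 and CCNE2 have the widest spans.

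The hairpins differed in how far they took the list. With H2, 34 of the 43 genes were below the scrambled array (56% of all genes tested) and the median log2 difference was -0.17, beside -0.030 over all genes. With H3, 27 of 43 were below (55.5% of all genes), with a median of -0.058 beside -0.021. With H4, 31 of 43 were below (61% of all genes), with a median of -0.083 beside -0.046. The gap between the list and all genes was thus -0.14 with H2 and -0.037 with both H3 and H4. These 3 comparisons share the scrambled array. Without H2 the list's median over the remaining hairpins was -0.043, beside -0.033 over all genes, so that little of the gap was left. It was -0.13 both without H3 and without H4, beside -0.039 and -0.027 over all genes.

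Counts at 1.2-fold on the low side ran from H2 over H4 to H3. With H2, 15 members were at least 1.2-fold lower (19.8% of all genes) and 1 was at least 1.2-fold higher (8.54%). With H3, 1 member was at least 1.2-fold lower (9.14%) and 1 was higher (5.89%). With H4, 10 members were at least 1.2-fold lower (13.3%) and 1 was higher (4.63%). The share of members past this fold was therefore above the background on the low side with H2 and H4 and under it with H3. With arrays centred on the median of the genes tested, 6 members with H2 and 3 with H4 were at least 1.2-fold lower (11.9% and 6.93% of all genes), and 1 with H3 (7.06%), so that H2 and H4 no longer stood clearly above the background. On the high side 1, 3 and 4 members with H2, H3 and H4 then passed 1.2-fold (20.8%, 7.66% and 11.5% of all genes). At 1.5-fold, 0 members were past the line with H2 on the low side (5.61% of all genes), 1 with H3 (GINS1, 1.14%) and 0 with H4 (2.17%), and on the high side there were 0 with each of H2 (0.992%), H3 (0.528%) and H4 (0.608%). H2 gave the lowest of the 4 intensities for 22 of the 43 genes, where it did so for 32.5% of all genes. H4 was lowest for 11 members (30.1% of all genes), H3 for 7 (20.5%) and the scrambled array for 3.

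**Figure D2:**
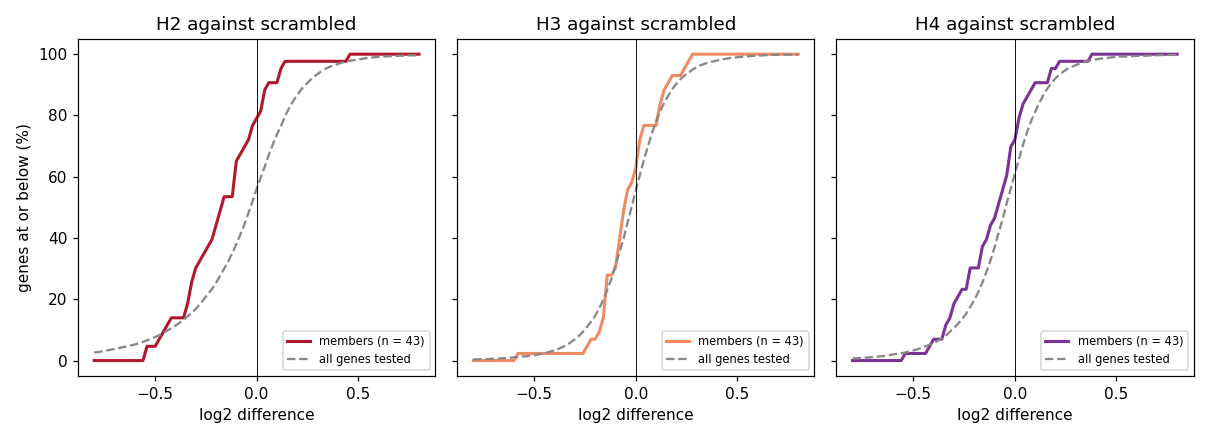
Share of genes (y axis, percent) at or below each log2 difference from the scrambled array (x axis), 1 panel per hairpin. Solid lines are the 43 members and dashed lines the 13813 genes tested; the solid line lies left of the dashed one over most of the range with H2, where the medians are -0.17 and -0.030, and the lines run closest with H3.

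Promoter sequence was examined because E2F sites are the textbook feature of this gene set and could be checked without the arrays. RefSeq windows of 250 bases before to 50 after the start of transcription (GRCh38.p14) were found for 37 of the 43 genes. The E2F octamers TTTCCCGC or TTTCGCGC or TTTGCCGC or TTTGGCGC were searched on both strands, and 18 of the 37 windows (48.6%) held at least 1. Of the 10917 tested genes with a window, 5.20% held one, as did 3.31% of all 35116 RefSeq windows. The octamer was in 8 of 19 windows of genes lower on all 3 knockdown arrays and in 10 of 18 windows of the other members. CCAAT, the box bound by NF-Y and common in cell-cycle promoters, was in 24 of 37 windows (64.9%), in 35.9% of windows of tested genes and in 34.6% of all windows. AGGCCT, the core letters of motifs given for ZFX, was in 3 of 37 windows (RPA1, CHAF1A and SLBP), in 11.1% of windows of tested genes and in 10.9% of all windows. CCAAT was in 14 of 19 windows of the lower members and 10 of 18 of the others, and AGGCCT in 3 of 19 and 0 of 18. The splits between lower and other members were not tested. A match describes the letters of these windows and is not a measured binding site.

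Below are the windows of the 3 members whose differences were furthest below the scrambled array with every hairpin (GINS1, BLM and MCM2) and of RRM2, the member furthest above it, so that both sides can be compared. Capitals mark E2F octamers and CCAAT on either strand. GINS1 (chr20:25407423-25407722), BLM (chr15:90717096-90717395), MCM2 (chr3:127598161-127598460) and RRM2 (chr2:10122489-10122788) are all read on the plus strand.
GINS1: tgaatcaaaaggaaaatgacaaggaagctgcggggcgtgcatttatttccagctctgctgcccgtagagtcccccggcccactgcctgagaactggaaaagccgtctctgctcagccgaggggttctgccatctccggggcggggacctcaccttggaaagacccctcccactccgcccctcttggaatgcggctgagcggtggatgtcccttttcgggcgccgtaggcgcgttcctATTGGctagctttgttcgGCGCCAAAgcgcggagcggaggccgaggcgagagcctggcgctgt
BLM: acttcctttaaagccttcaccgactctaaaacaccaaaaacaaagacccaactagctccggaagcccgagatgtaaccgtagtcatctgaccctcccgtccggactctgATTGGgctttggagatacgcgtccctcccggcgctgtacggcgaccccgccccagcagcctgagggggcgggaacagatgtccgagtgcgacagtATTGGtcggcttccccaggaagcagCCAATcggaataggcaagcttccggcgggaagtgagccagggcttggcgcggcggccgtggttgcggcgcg
MCM2: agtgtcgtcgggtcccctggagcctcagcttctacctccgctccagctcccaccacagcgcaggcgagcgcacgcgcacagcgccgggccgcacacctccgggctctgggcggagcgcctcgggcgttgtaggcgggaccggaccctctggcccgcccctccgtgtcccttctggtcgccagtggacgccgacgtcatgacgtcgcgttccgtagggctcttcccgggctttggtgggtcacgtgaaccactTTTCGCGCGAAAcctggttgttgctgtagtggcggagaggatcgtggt
RRM2: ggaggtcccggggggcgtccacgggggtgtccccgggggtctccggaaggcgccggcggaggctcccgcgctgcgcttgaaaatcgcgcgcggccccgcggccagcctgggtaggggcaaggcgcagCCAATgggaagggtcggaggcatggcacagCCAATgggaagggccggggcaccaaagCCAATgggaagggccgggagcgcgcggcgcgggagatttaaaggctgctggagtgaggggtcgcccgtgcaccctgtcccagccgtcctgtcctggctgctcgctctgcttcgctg
The GINS1 window holds ATTGG, the CCAAT box on the other strand, and close behind it GCGCCAAA, an E2F octamer read on the other strand. The MCM2 window holds TTTCGCGC and its reverse complement GCGCGAAA, which overlap. BLM and RRM2 hold no E2F octamer and 3 CCAAT boxes each, so the letters searched did not separate the member furthest above from those furthest below.

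The subunits of the MCM2 to MCM7 ring, the core of the replicative helicase, had a median of the mean log2 difference of -0.16. Of these, 4 of 6 were lower on all 3 knockdown arrays and 0 higher (30.6% and 16.9% of all genes). Those shares are the background for the counts of every role group in the intensities as deposited. With arrays centred on the median of the genes tested, 1 was lower and 1 higher, with a median of -0.070. The background of all genes under that centring was 14.4% lower and 34.3% higher, with a median of 0.054. MCM2 read 1345, 1549 and 1363 with H2, H3 and H4, against 1809 with the scrambled hairpin, or 78.3% of it (mean log2 difference -0.35 ± 0.11, SD, n = 3). All 3 knockdown arrays were lower, H3 least so. MCM6 read 1001, 1409.5 and 1459 with H2, H3 and H4, against 1467, so that its mean of -0.21 ± 0.30 came almost wholly from H2. MCM3 (-0.11 ± 0.12) and MCM4 (-0.15 ± 0.066) were also below with every hairpin. MCM5 was below with H2 and H4 (-0.35 and -0.18) and slightly above with H3 (0.030). MCM7 differed least, with log2 differences of -0.030, -0.0043 and 0.032, so the 6 subunits of 1 ring did not shift by the same amount.

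Helicase activation depends on CDC45 and on the 4 GINS subunits, which clamp onto the MCM ring, and on MCM10, which helps the assembled helicase to start. GINS1 had the largest mean difference of the list. It read 2102, 1773 and 2099 with H2, H3 and H4, against 2671, or 74.3% of it (mean log2 difference -0.43 ± 0.14, SD, n = 3, with SE 0.15 in limma). It was also the member lowest with H3 (-0.59), unlike the list as a whole, in which H3 differed least. GINS2 read 2522, 2551 and 2289, against 2833 (mean -0.21 ± 0.086), again without overlap. GINS3 stood on the other side, with 926, 1087 and 913 against 912, although H4 was practically equal to the scrambled array. GINS4 lay on both sides (-0.18, 0.12 and -0.13 with H2, H3 and H4), so the 4 subunits of the complex were split. CDC45 was lower with each hairpin (mean -0.20 ± 0.12), and MCM10 averaged -0.065 ± 0.058.

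Origin licensing genes stayed closer to the scrambled array, with 1 of 4 lower on all 3 knockdown arrays. With arrays centred on the median of the genes tested it was 0 of 4, where 14.4% of all genes were lower. CDC6, the loader of the helicase, read 3008, 4521 and 4455 with H2, H3 and H4, against 4398. It was therefore lower with H2 alone, and its mean difference of -0.16 was 0.029 without H2. CDT1, the partner of CDC6, read 319, 369.9 and 293 with H2, H3 and H4, against 328, and its mean of -0.010 ± 0.17 was near 0 and turned positive under each scaling tried. ORC1, the large subunit of the origin recognition complex, lay on both sides (-0.11, 0.15 and -0.12), while ORC6 was lower with every hairpin (mean -0.15 ± 0.12).

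**Figure D3:**
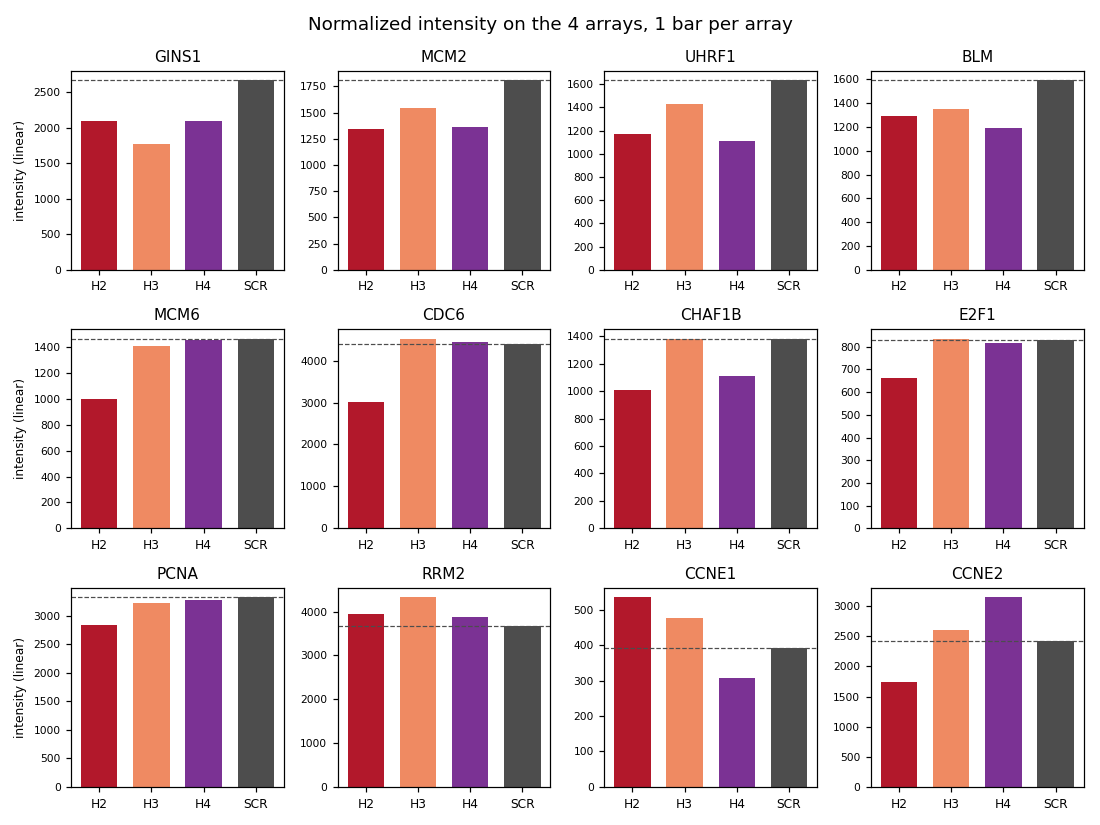
Normalized intensity on a linear scale (y axis, separate for each gene and starting at 0) of 12 members, 1 bar per array, with the H2, H3 and H4 arrays left of the scrambled array (SCR); there is 1 array per bar, so no error bar. The dashed line is the scrambled level: GINS1, MCM2, UHRF1 and BLM are under it on 3 knockdown arrays, MCM6, CDC6 and E2F1 dip mainly with H2, and CCNE1 and CCNE2 cross it in opposite ways.

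The genes that act at the fork differed little. PCNA, the sliding clamp that tethers polymerases, read 2832, 3219.9 and 3271 with H2, H3 and H4, against 3323, or 93.3% of the scrambled level. RFC5, a subunit of the loader that opens the clamp, read 1859, 2114 and 2134, against 2349 (mean -0.21 ± 0.11), with no overlap. RFC2 was lower by nearly the same amount with each hairpin (mean -0.063 ± 0.024), the smallest spread of the list, while RFC3 and RFC4 lay on both sides. Of polymerase alpha-primase, which lays down the primers, the regulatory subunit POLA2 was slightly lower (-0.078 ± 0.030) and the primase PRIM1 slightly higher with all 3 hairpins. PRIM1 read 2646, 2618 and 2541, against 2416 (mean 0.11 ± 0.030). POLA1, the catalytic subunit, was on both sides (-0.11, 0.10 and 0.21). It is on the X chromosome with ZFX, with 4 protein-coding genes between them in RefSeq. Of the nick-processing enzymes, the flap nuclease FEN1 was lower with every hairpin (-0.098 ± 0.050) and DNA ligase LIG1 was on both sides (0.022 ± 0.13).

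RPA1, the large subunit of the single-strand binding protein RPA, read 1653, 1892 and 1810.2 with H2, H3 and H4, against 2029 (mean log2 difference -0.19 ± 0.099). It did not overlap with the scrambled array, but RPA2 (-0.094 ± 0.16) and RPA3 (0.0038 ± 0.066) did. The subunits of ribonucleotide reductase, which makes deoxynucleotides, parted. RRM1, its large subunit, read 3561, 3826 and 3676, against 4303 (mean -0.22 ± 0.052), lower with each hairpin by similar amounts. RRM2, the small subunit whose level follows S phase, read 3951, 4325 and 3879, against 3664, a 1.10-fold difference (mean 0.14 ± 0.084) and the largest positive mean of the list. TYMS, thymidylate synthase, was lower with H2 (-0.34) and near the scrambled level with H3 and H4 (0.012 and -0.061).

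Genes that restore chromatin behind the fork had the lowest median of the role groups, -0.24, with 3 of 4 lower on all 3 knockdown arrays. With arrays centred on the median of the genes tested, the values were -0.15 and 2 of 4, beside 0.054 and 14.4% of all genes. UHRF1, which brings the maintenance DNA methyltransferase to newly copied DNA, read 1169, 1430.2 and 1114 with H2, H3 and H4, against 1635, or 75.2% of the scrambled level (mean -0.41 ± 0.19). Its second probe set read 146, 136 and 131, against 167, and was also lower with each hairpin (mean -0.28). CHAF1A, the large subunit of the histone chaperone CAF-1, read 1276, 1333 and 1169, against 1479 (mean -0.23 ± 0.097). Both genes were lower without overlap. CHAF1B, its partner, read 1011, 1383 and 1111, against 1379, and was at the scrambled level with H3 (mean -0.25 ± 0.23). SLBP, which binds the stem-loop of histone mRNAs, averaged -0.058 ± 0.038.

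The fork protection and repair genes were split evenly. BLM, the helicase lost in Bloom syndrome, read 1293, 1347 and 1188 with H2, H3 and H4, against 1593, or 80.0% of the scrambled level (mean -0.32 ± 0.093). UNG, which removes uracil from DNA, read 1459, 1497 and 1401, against 1653 (mean -0.19 ± 0.048). Both were lower on all 3 knockdown arrays. CLSPN, the adaptor that passes the stalled-fork signal to CHEK1, averaged 0.097 ± 0.090, and its second probe set 0.085. TIPIN, a fork protection factor, averaged 0.016 ± 0.16, and both lay on 2 sides of the scrambled array.

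The G1/S regulators had the widest spread between hairpins, and 0 of 3 were on 1 side. CCNE1, cyclin E1, read 536, 476 and 309 with H2, H3 and H4, against 393, that is, higher with H2 and H3 and lower with H4. CCNE2, cyclin E2, read 1747, 2606 and 3151, against 2429, that is, lower with H2 and higher with H3 and H4. With H2 and H4 the cyclins E thus stood on opposite sides of the scrambled array, in opposite order. Their means of 0.12 ± 0.42 and 0.00031 ± 0.43 had the largest SDs of the list, whose median SD was 0.11, close to that over all genes (0.11). CCNE1 turned negative without H2 (-0.036), and CCNE2 turned negative without H3 (-0.050) and without H4 (-0.19). E2F1, the transcription factor upstream of much of the list, read 663, 835 and 815, against 829 (mean -0.11 ± 0.18), and was lower mainly with H2.

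Other genes of the same pathway, outside the list of 43, also had a median below the scrambled array, but their sublists differed. Of 93 such genes, 86 were measured and 83 tested, with 33 lower and 8 higher on all 3 knockdown arrays (39.8% and 9.64%, beside 30.6% and 16.9% of all genes), a median of -0.065 and 0 past the limma threshold. With arrays centred on the median of the genes tested, 18 were lower and 20 higher (21.7% and 24.1%, beside 14.4% and 34.3% of all genes). The median was then 0.024, beside 0.054 over all genes. In the intensities as deposited, the median by hairpin was -0.11, -0.050 and -0.094 with H2, H3 and H4. By sublist it was -0.032 for replication machinery, beside -0.035 over all genes, and -0.059 for G1/S control. It was -0.12 for nucleotide supply, -0.16 for chromatin and methylation, and -0.13 for fork checkpoint and repair. Except for CDKN1A, the genes named next were picked for the largest mean differences within their sublists. CDC25A, the phosphatase that activates the cyclin E kinase, was the 1 gene at least 1.2-fold lower with every hairpin, at 724, 801 and 734 against 1046 (mean -0.47 ± 0.079). Geminin (GMNN), the inhibitor of CDT1, was lower by similar amounts with each hairpin (-0.24 ± 0.028), as was POLD1, the catalytic subunit of polymerase delta (-0.22 ± 0.033). Several others were lowest with H2. CCND1, cyclin D1, read 1978, 3638 and 3985 against 4131, RRM2B, the p53-induced subunit of ribonucleotide reductase, 404, 653 and 787 against 848, and USP1, a deubiquitinase of the Fanconi pathway, 843, 1468 and 1541 against 1519.7. CDKN1A, the p21 inhibitor of cyclin kinases, read 718, 1007 and 1045 against 1047. As deposited it was thus lower mainly with H2 and practically at the scrambled level with H4 (-0.0024).

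Genes of G2 and mitosis, which also track cycling cells, were closer to the scrambled array than the members in the intensities as deposited. Centring shifted them upward together with all genes. Of 39 tested, 9 were lower and 6 higher on all 3 knockdown arrays (23.1% and 15.4%, beside 30.6% and 16.9% of all genes). Their median was -0.019, beside -0.035 over all genes, with medians of -0.085, -0.0066 and 0.038 with H2, H3 and H4. With arrays centred on the median of the genes tested, 1 was lower and 15 were higher (2.56% and 38.5%, beside 14.4% and 34.3% of all genes). Their median was then 0.070, beside 0.054 over all genes and -0.0092 over the 43 members. The proliferation marker MKI67 read 3495, 4289.8 and 4021 against 3768, and TOP2A, the topoisomerase of dividing cells, 8711, 8873 and 9039 against 9088. PLK1, a mitotic kinase, was higher with each hairpin (0.19 ± 0.017) and BUB1, a spindle checkpoint kinase, lower (-0.29 ± 0.12). The difference between the replication list and the mitotic list was not tested.

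**Figure D4:**
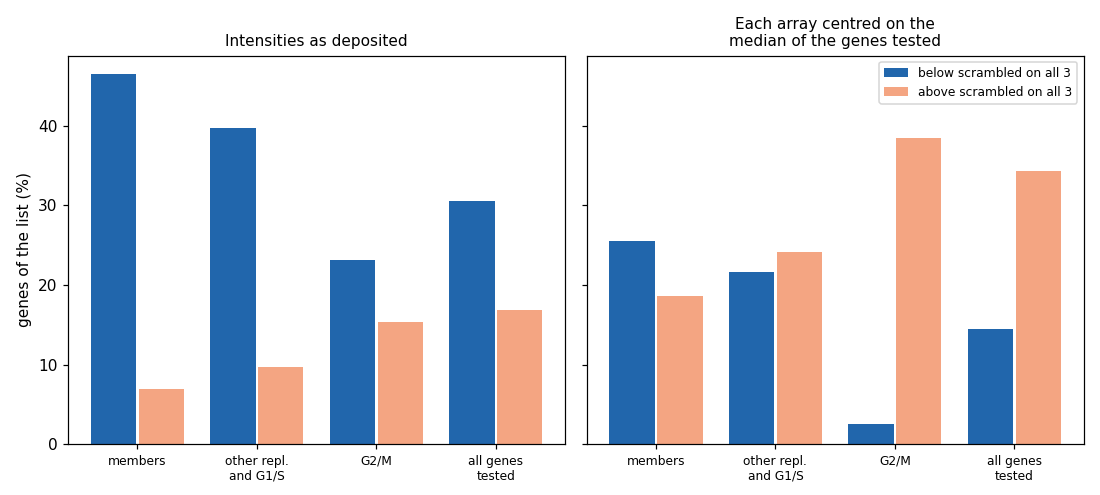
Percentage of genes (y axis) that lay below (blue) or above (orange) the scrambled array on all 3 knockdown arrays, for the 43 members, the 83 other replication and G1/S genes, the 39 G2/M genes and all 13813 genes tested. Left, intensities as deposited, with 46.5% of members below and 6.98% above; right, each array centred on the median of the genes tested, with 25.6% below and 18.6% above, where all genes turn to 14.4% and 34.3%.

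Signal strength was considered beside these counts, since 42 of the 43 members were in the brighter part of the genes (at or above the 50th percentile). Over the 9209 genes of that part the median was -0.045, and 31.8% were lower and 15.7% higher on all 3 knockdown arrays. Scan date and slide were not used here, and with 1 control array a shift of that array cannot be told apart from an effect common to all hairpins.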

How the data were processed

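RNA of 4 DAOY cultures was hybridised to 1 array each, from 250 ng of total RNA, per the labels' protocols. The authors deposited 1 intensity per probe set and array, summarised and normalized with RMA per the submitters' processing notes; the version, settings and genome build are not stated in any source used here. The deposited intensities are linear, so log2 was taken. RMA brings the arrays close to a common distribution, which hides a change of total RNA per cell. The deposited intensities still differed somewhat between arrays, with array medians of 226 to 232. Quantile normalization again moved the median log2 difference over all genes from -0.035 to -0.0083. Of 33297 probe sets, 19460 carry 1 gene symbol, standing for 18417 genes; 19429 matched RefSeq by gene number. Genes under the 25th percentile of mean log2 intensity (6.78) were left out, which left 13813.

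Knockdown was set against scrambled with limma 3.58.1 (R 4.3.3; lmFit, eBayes with an intensity trend, Benjamini-Hochberg over all 13813 genes, 2 residual degrees of freedom). The single control array is taken to vary as the hairpin arrays do, and p-values measure only the spread between these arrays. The fit was tested on simulated data with changes larger than any difference of the members. Whether it could call differences as small as theirs was not tested. Differences are knockdown minus scrambled, and SDs over the 3 hairpins do not hold the scrambled array's own error. The number of arrays limits the precision. Figures used matplotlib 3.10.9 in Python 3.11.15.

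The members and gene lists were chosen with earlier results of these data known. Intensities on every array are given for members on 1 side with a smallest difference of at least 0.1, for members with any difference of at least 0.4, and for CCNE1, CCNE2, E2F1, PCNA, CDC6 and CDT1. PRIM1, GINS3 and RRM2 were added after their values were seen, as the only members above the scrambled array with all hairpins. From the other lists, genes among the 4 with the largest mean difference and CDKN1A, MKI67 and TOP2A were named. Histone genes and p53 target genes are given in the closing section. Alternatives changed the scaling, filter, probe set rule, offset and variance model, or left out a hairpin.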

Additional observations from a re-analysis of the deposited data

How the results depend on the processing

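Over 13 alternatives 0 members passed the limma threshold, and ZFX stayed below the scrambled array and under the threshold. Among the members whose intensities are given by rule, 222 of 233 alternative values kept their direction. That count includes changes of the filter and the variance model, which leave a gene's difference as it is and could not turn it. The rule also favours members with larger differences. Over all 43 members, 33 had a mean difference below 0 as deposited and 23 with centring on the genes tested (8311 and 4965 of 13813 genes). CDT1 turned to 0.022 with each array centred on the median of all probe sets, 0.029 with quantile normalization, 0.013 with cyclic loess, 0.044 with centring on all named genes and 0.078 with centring on the genes tested. The exceptions among fits that left out a hairpin were CDC6, CDT1, CCNE1 and CCNE2. CDC6 ranged from -0.26 to 0.029, CDT1 from -0.10 to 0.066, CCNE1 from -0.036 to 0.36 and CCNE2 from -0.19 to 0.24.

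The 2 further centrings were chosen after seeing the data. Centring on all named genes gave 13 members lower and 5 higher on all 3 knockdown arrays (19.4% and 26.9% of all genes). With H2 and H4, 8 and 6 members were then at least 1.2-fold lower, counts given without a share over all genes. The medians with H2 and H4 were -0.095 and -0.015, beside 0.049 and 0.022 over all genes. Centring on the genes tested gave 11 lower and 8 higher (14.4% and 34.3% of all genes), and an overall median of -0.0092. With it, 0 members were at least 1.2-fold lower on all 3 (235 of 13813 genes were). With H2 and H4, 6 and 3 were at least 1.2-fold lower (11.9% and 6.93% of all genes). The medians with H2 and H4 were -0.047 and 0.023, beside 0.097 and 0.060 over all genes. These scalings shift all genes of an array alike, which sets those changes. Leaving out H2, H3 or H4, 22, 28 and 22 members were lower on both remaining knockdown arrays (40.1%, 40.6% and 39.4% of all genes), 7, 6 and 4 higher (23.5%, 23.5% and 27.9%), and 1, 5 and 1 at least 1.2-fold lower, where fewer arrays had to pass. Without H2, 546 of 13813 genes were at least 1.2-fold lower on both. The counts at this fold without H3 and without H4 are given without a share over all genes, so they are not read as a result about the members. No paired analysis was possible because the control group holds 1 array. With 1 control array, small differences common to the hairpins cannot be told apart from that culture's own variation.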

Other observations

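Of 12 tested replication-dependent histone genes, which are transcribed in S phase, 2 were lower and 1 was higher on all 3 knockdown arrays (30.6% and 16.9% of all genes), with a median log2 difference of -0.023. With arrays centred on the median of the genes tested, 0 were lower and 3 higher (14.4% and 34.3% of all genes). The median was then 0.066, beside 0.054 over all genes. H2BC5 was above the scrambled array with each hairpin, at 869.8, 784 and 901 with H2, H3 and H4 against 709.5 (mean 0.26 ± 0.10, SD, n = 3), whereas H4C4 read 336, 367 and 460.0 against 461. Histone genes of the same family are closely similar, so their probe sets may read related genes. Of 22 tested p53 target genes, 12 were lower and 3 higher on all 3 knockdown arrays (30.6% and 16.9% of all genes), with a median of -0.16. With that centring 6 were lower and 7 higher (14.4% and 34.3% of all genes), with a median of -0.068 beside 0.054 over all genes. TP53INP1, a stress-induced regulator of autophagy and cell death, read 185, 241 and 213 against 355, and MDM2, which restrains p53, read 2296, 2041 and 2659.7 against 1516. In limma 0 genes of either list passed.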
